A study of Ambystoma mexicanum with 6 samples.

Results

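The sites described here are stretches of axolotl chromatin that were listed as open in intact limbs, in systemically activated limbs and in blastemas. They were found by joining all peaks of 6 peak lists that overlapped by at least 1 bp into 3529 sites and keeping those with at least 1 peak in each of the 3 groups. The rule kept 222 sites, or 6.29% of the total, and these are called shared sites below. Of them, 155 had a peak in all 6 lists. The sites were chosen by the presence of peaks in these same lists, so their presence is a description and was not tested.

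ATAC-seq uses the transposase Tn5 to cut DNA that is not covered by nucleosomes, and a peak is a stretch with more cuts than its surroundings. In vertebrates, stretches with open chromatin in many cell types are often promoters of widely used genes or binding sites of insulator proteins, while enhancers tend to be open in fewer cell types. The axolotl regrows an amputated limb from a blastema, a mound of dividing progenitor cells under a wound epidermis. Amputation also brings cells in limbs that were not injured back into the cell cycle, which is called systemic activation.

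All animals were wild type. Each group had 2 libraries, made from limb tissue at homeostasis (intact 1 and 2), from limb tissue of systemically activated animals 14 days after an amputation (systemically activated 4 and 5), or from blastema with its wound epidermis (blastema 1 and 2), for which no day is given. The letters CTL in the titles of both systemically activated samples are not spelled out. Every library came from 10000 live cells sorted for a 4C DNA content, that is, cells that had copied their DNA and not yet divided, and was sequenced with paired reads of 100 bp. The sort mixes all limb cell types, so fewer open cells and less opening per cell cannot be told apart. The labels do not say whether libraries came from separate animals or how many animals were pooled, so p-values measure only the spread between these libraries. The lists carry no gene names, so the tissue could not be checked against marker genes, and read depth is unknown. Positions are counted from 1 within the named segment of a chromosome arm, on a build that is not given in the sources used here, and no gene was assigned to a site.

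The lists differed far more in length than in how many of their peaks fell at shared sites. There were 305 and 483 peaks in intact 1 and 2, 1389 and 2962 in systemically activated 4 and 5, and 248 and 258 in blastema 1 and 2. Peaks at shared sites numbered 223, 232, 221, 222, 220 and 228 in the same order. They were thus 88.7% and 88.4% of the peaks in the blastema lists, 73.1% and 48.0% in the intact lists, and for systemically activated 4 and 5 only 15.9% and 7.49%. The longest list held 222 such peaks and the shortest 220, so the share moved with the length of the list and hardly with the number of shared sites found. A shared site needs a peak in a blastema list, so the short blastema lists limit the size of the set. These counts and shares therefore follow in part from the rule. Of the 3529 sites, 3102 (87.9%) had peaks in 1 group and 205 (5.81%) in 2 groups.

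Shared sites stood at the top of every list. To be shared, a site had to pass the caller's threshold in at least 1 list of every group. Stronger peaks pass it more easily, so this place at the top follows in part from the rule. Peaks were ranked within a list by the authors' column 7, the area of a peak above the caller's threshold, with rank 1 for the largest area. Every one of the strongest 109 peaks of systemically activated 4 and of the strongest 137 peaks of blastema 1 lay at a shared site. The corresponding runs were 125 and 136 peaks in intact 1 and 2, 119 in systemically activated 5 and 132 in blastema 2. The strongest peak outside the shared sites therefore ranked between 110 and 138. Among the strongest 200 peaks of a list, 181 and 180 lay at shared sites in the intact libraries, 165 and 160 in the systemically activated libraries, and 191 in each blastema library.

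Shared sites also held most of the area. As with the ranks, the shares of area and the −log10 q values given here follow in part from the rule. In the blastema lists they made up 99.3% and 99.1% of the summed area, and in the intact lists 97.8% and 96.2%. In the systemically activated lists, where they were the smaller part of the peaks, they still held 83.5% and 65.3% of it. All peaks with a summit −log10 q of at least 5 lay at shared sites: 83, 74, 65, 57, 59 and 68 peaks in intact 1 and 2, systemically activated 4 and 5 and blastema 1 and 2. The median summit −log10 q of peaks at shared sites lay between 3.55 and 4.05, and that of all other peaks between 1.77 and 2.17.

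**Figure D1:**
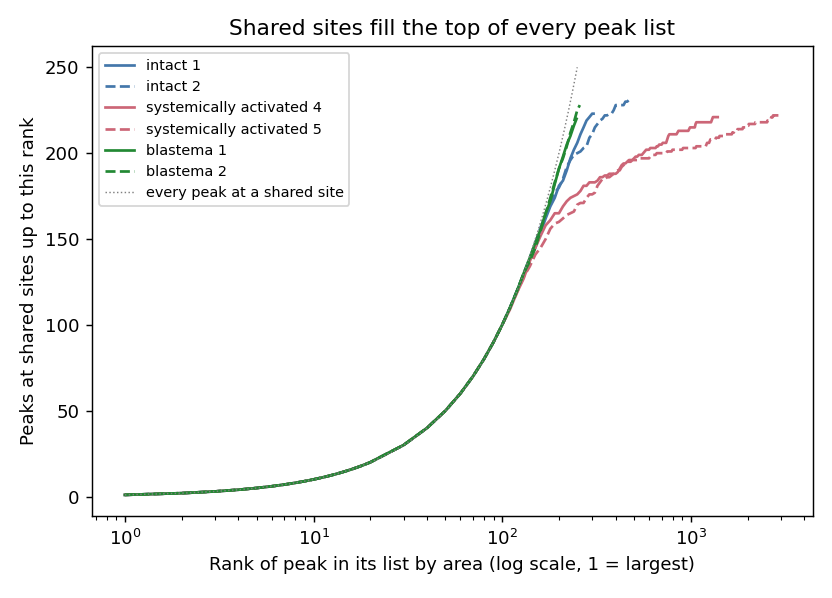
Number of peaks at shared sites among the strongest peaks of each list (vertical axis, peaks) against the rank of the peak in its list by area (horizontal axis, log scale). The 6 lines, 1 for each library, run together along the dotted line on which every peak lies at a shared site, leave it between rank 110 and rank 138, and end between 220 and 232 peaks.

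Presence was uneven among the 222 sites. In addition to the 155 sites with a peak in all 6 lists, 39 were in 5 lists, 19 in 4 and 9 in 3. Intact 1 lacked a peak at 24 shared sites, intact 2 at 11, systemically activated 4 at 14, systemically activated 5 at 15, blastema 1 at 21 and blastema 2 at 19. Even the longest list, that of systemically activated 5, thus lacked 15 of them. Of the 39 sites that lacked a single list, 12 lacked blastema 1, 11 lacked intact 1, 6 lacked systemically activated 4, 5 lacked blastema 2, 4 lacked systemically activated 5 and 1 lacked intact 2.

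The sites that were missing from a list had median ranks further down, where they were listed, than the sites in all 6 lists. Ranks are places within a list, and the lists held from 248 to 2962 peaks. A given rank therefore stands for a different share of each list. Sites found in all 6 lists had median ranks between 79 and 82 in every list. The 67 sites found in fewer lists had median ranks of 193 and 207.5 in intact 1 and 2, 345 and 275 in systemically activated 4 and 5, and 186.5 and 198 in blastema 1 and 2. The 15 sites missing from systemically activated 5 had a median rank of 671 in systemically activated 4, and the best of them ranked 99. The 14 sites missing from systemically activated 4 had a median rank of 529.5 in systemically activated 5, and the best of them ranked 126.

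Just inside the rule stood the 9 sites with a single list per group. The strongest was a site of 377 bp on 1p, segment 0, from 68849382 to 68849758. It ranked 188 in intact 1, 99 in systemically activated 4 and 72 in blastema 2, where its summit −log10 q was 5.92, and it had no peak in the other library of any group. Another, of 308 bp on 1p, segment 0, from 200860257 to 200860564, ranked 143 in intact 2, 126 in systemically activated 5 and 109 in blastema 2. The narrowest shared site, 101 bp on 2p, segment 1, from 192389766 to 192389866, ranked 465 in intact 2, 1296 in systemically activated 4 and 237 in blastema 1. The other 6 ranked from 151 to 252 in an intact list, from 266 to 1693 in a systemically activated list and from 144 to 257 in a blastema list.

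Just outside the rule stood 10 sites with peaks in all 4 lists of a pair of groups and none in the remaining group. Of these, 7 lacked the blastema, 2 lacked the intact limb and 1 lacked the systemically activated limb. The blastema lists were the shortest, with 248 and 258 peaks, and the intact lists held 305 and 483. The systemically activated lists were the longest, with 1389 and 2962. A site is more easily missing from a short list, and the part of list length was not tested. The widest, 894 bp on 1q, segment 2, starting at 409108915, lacked the blastema. The site that lacked the systemically activated limb covered 280 bp on 11p, from 99978419 to 99978698. The 2 that lacked the intact limb covered 264 bp on 3q, segment 0, from 27486586 to 27486849, and 271 bp on 5q, segment 2, from 348893938 to 348894208. The thinnest overlap by which a shared site was joined was 49 bp, at a site on 9q, segment 2, from 305202965 to 305205215. No neighbouring sites outside the set would have qualified together unless they had been joined across at least 1473 bp.

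Shared sites were wide. Their median width was 535.5 bp, with quartiles of 358 and 912 bp and a range from 101 to 5061 bp, and the median of the other 3307 sites was 209 bp. A width of at least 1000 bp was seen at 49 shared sites (22.1%) and at 2 other sites (0.0605%). A width of at least 2000 bp was seen at 16 shared sites (7.21%) and at 0 other sites. A joined site widens with the number of peaks joined, so the width of single peaks was also taken within each list. The median peak at a shared site was 400 and 370.5 bp wide in intact 1 and 2, 435 and 486.5 bp in systemically activated 4 and 5, and 381.5 and 385.5 bp in blastema 1 and 2. Elsewhere the median peak was 172.5 and 107, 179.5 and 213, and 108 and 106 bp wide in the same libraries. Area grows with width, so width and rank are not separate measures. The width of single peaks at shared sites therefore also follows in part from the rule.

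Joined width was largest for sites in all 6 lists. The median was 308 bp for the 9 sites in 3 lists, 311 bp for the 19 in 4, 343 bp for the 39 in 5 and 700 bp for the 155 in 6. A joined site can only widen as lists add peaks, so the order follows in part from the joining. The 222 shared sites covered 174.6 kb together, and the 3307 others covered 774.9 kb.

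**Figure D2:**
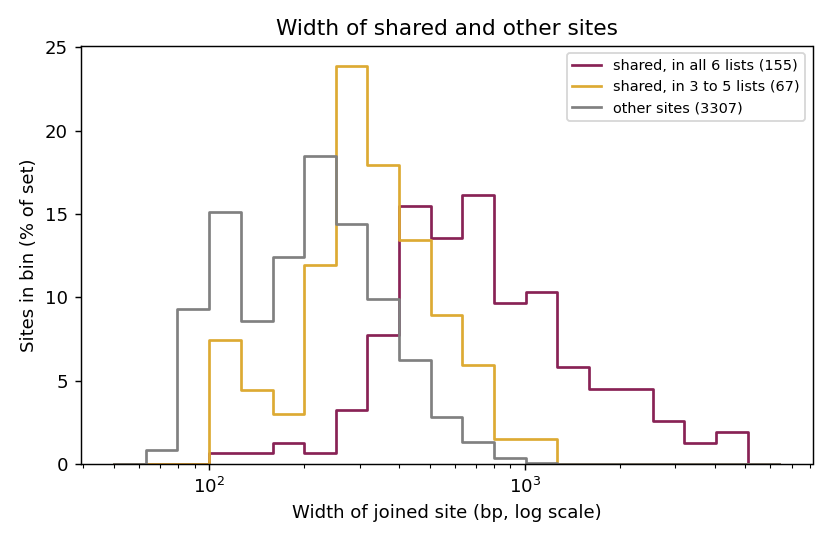
Width of joined sites (horizontal axis, bp, log scale) against the percentage of each set in a bin (vertical axis), for shared sites in all 6 lists, shared sites in 3 to 5 lists, and other sites. The sites in all 6 lists, with a median of 700 bp, lie to the right of the others, with a median of 209 bp.

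Peak width was compared between groups at the 155 sites found in all 6 lists. The median of the widest peak per site was 533 and 540 bp in intact 1 and 2, 570 and 599 bp in systemically activated 4 and 5, and 556 and 524 bp in blastema 1 and 2. Both systemically activated libraries lay above the other 4, and the intact and blastema libraries overlapped. The lists did not reach equally far down. The lowest −log10 p listed was 6.64 and 6.24 in systemically activated 4 and 5. In the other 4 lists it was between 6.86 and 7.13. Any effect of this on peak width was not tested. The means of the library medians were 536.5 ± 4.95 bp in the intact limb, 584.5 ± 20.5 bp in the systemically activated limb and 540 ± 22.6 bp in the blastema (SD, n = 2 each). As a log2 ratio, the systemically activated limb stood 0.12 above the intact limb and 0.11 above the blastema, each with p = 0.333 in a 2-sided exact permutation test (0.5 after Benjamini-Hochberg adjustment over 6 tests). The blastema differed from the intact limb by 0.0088 (exact p = 1). With 2 libraries against 2 the exact test cannot go below 0.333. The log2 ratio to the intact limb was 0.21 with −log10 q of at least 5 or with 248 peaks per list, and that to the blastema was 0.17 without intact 1, without blastema 1 or with peaks joined across 500 bp. The ratio of blastema to intact limb turned negative without intact 1, blastema 1 or either systemically activated library.

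The widest and strongest shared sites were the same few stretches in every library. A site of 5061 bp on 5q, segment 0, from 57768606 to 57773666, was a single unbroken peak in every list, between 5017 and 5058 bp wide. Its area was 19759 and 20423 in intact 1 and 2, 17617 and 15642 in systemically activated 4 and 5, and 23864 and 26228 in blastema 1 and 2, the largest of its list each time. A site of 4174 bp on 3p, segment 1, from 259876344 to 259880517, ranked 2 in all 6 libraries when the areas of its peaks were added. It consisted of 2 peaks in each intact and systemically activated library and of a single peak of 4109 and 4170 bp in the blastema libraries.

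A site of 4132 bp on 5q, segment 0, from 58675102 to 58679233, ranked 3, 5, 4, 4, 3 and 3, with libraries in the same order. A site of 3756 bp on 2p, segment 0, from 116659249 to 116663004, ranked 4, 3, 3, 3, 5 and 6. It was a single peak of 3519 to 3739 bp in the 4 intact and systemically activated libraries, and 2 and 3 peaks in blastema 1 and 2, the widest of them 2022 and 1969 bp. The site on 2p was thus split in the blastema libraries, where the site on 3p was not. A site of 2958 bp on 3p, segment 1, from 259791226 to 259794183, was a single peak of 2888 to 2940 bp in every list and ranked 5, 4, 5, 5, 4 and 4. The 10 strongest sites held between 32.8% and 36.8% of the area at shared sites in each library.

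At the other end, a site of 147 bp on 7q, segment 2, from 344744999 to 344745145, had a peak in every list, of 78 to 147 bp. It ranked 141, 153, 154, 155, 142 and 152 among the 155 sites, and in the complete lists 168, 319, 417, 1261, 164 and 221. A site of 439 bp on 13q, from 379956049 to 379956487, ranked 155, 155, 153, 146, 151 and 133 among the 155. A site of 714 bp on 12q, segment 0, from 206614516 to 206615229, ranked 153, 143, 146, 153, 149 and 155. The areas of these 3 sites lay between 23.5 and 216 over the 6 lists, whose lowest area is 20.0.

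Most shared sites had no more than 1 peak in any list. Each listed peak carries 1 summit, the position of its highest signal, so further maxima within a peak were not counted. At 170 of the 222 sites (76.6%) no list held more than 1 peak, and at 52 (23.4%) at least 1 list held 2 or more. The same was true of 31 of the other sites (0.937%). Peaks of a list do not overlap one another, so a split site needs a peak of another list that bridges them. Shared sites have peaks in several lists by the rule, so this difference follows in part from the rule. Split sites were wider, with a median of 1003.5 bp against 462 bp for sites that were not split. A split site has to hold at least 2 peaks and the gap between them, so this follows in part from the definition. Of the 52 split sites, 19 were split in a single list. A site of 2606 bp on 2p, segment 0, from 300853920 to 300856525, was split in all 6 lists, into 2 peaks in 5 of them and 3 in systemically activated 5. A site of 1984 bp on 3q, segment 3, from 233267971 to 233269954, held 3, 2, 2, 1, 3 and 3 peaks. At split sites, neighbouring summits of a list were a median of 524.5 bp apart over 118 pairs, with a range from 154 to 2160 bp. The gap between the peaks was a median of 128 bp and at least 102 bp. No list held neighbouring peaks closer than 101 bp, so a shorter dip in the signal is not seen in these lists.

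Splitting was compared between groups as the number of peaks per site. A site split into more peaks tends to have a narrower widest peak. Peaks per site and the peak width compared above are therefore not separate measures. At the 155 sites found in all 6 lists the mean number of peaks per site was 1.16 and 1.11 in intact 1 and 2, 1.07 and 1.09 in systemically activated 4 and 5, and 1.10 and 1.14 in blastema 1 and 2. The systemically activated libraries lay below the other 4. Their lists also reached down to a lower −log10 p, as given above for width, and any effect of this on splitting was not tested. Group means were 1.14 ± 0.0365, 1.08 ± 0.0137 and 1.12 ± 0.0274 (SD, n = 2 each). The systemically activated limb differed by −0.0548 peaks per site from the intact limb and by −0.0419 from the blastema, each at the smallest exact p of 0.333. The blastema differed from the intact limb by −0.0129 (exact p = 0.667), a difference that was positive without intact 1 or blastema 1, with −log10 q of at least 2 or with 248 peaks per list. The difference of the systemically activated from the intact limb was −0.0216 with peaks joined across 500 bp (exact p = 1) and −0.0331 without intact 1. Its difference from the blastema was 0 with −log10 q of at least 5 (exact p = 1), −0.0144 with peaks joined across 500 bp and −0.0882 with 248 peaks per list.

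Summits lay close together in different libraries. For each of the 155 sites the summit of the strongest peak was compared over the 6 libraries. The distance between the leftmost and rightmost summit had a median of 106 bp, with quartiles of 23 and 250 bp. It was at most 50 bp at 63 sites (40.6%) and above 500 bp at 18 sites (11.6%). The sites with a summit that moved more than 500 bp were wide, with a median of 2049.5 bp against 590 bp for the sites within 50 bp. A summit lies within its site, so only a site wider than 500 bp can have such a distance. The difference in width follows in part from this. The widest site of all, on 5q from 57768606, was open along nearly its whole length in every library while its summit moved over 3355 bp. Among the 46 sites no wider than 500 bp the median distance was 39.5 bp.

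Between single libraries the median summit distance was 10 bp in the intact pair, 15 bp in the systemically activated pair and 12 bp in the blastema pair, and between 10 and 19 bp for libraries of different groups. The mean over replicate pairs was 12.3 bp and over pairs of different groups 14.75 bp. The difference of −2.42 bp had p = 0.267 in a 1-sided exact permutation test, in which the 6 libraries can be paired in 15 ways and the smallest possible p is 0.0667. With summit −log10 q of at least 2 (−2.5 bp) or the strongest 248 peaks of each list (−2.17 bp) the exact p was 0.0667. The difference was −4.54 bp with −log10 q of at least 5, and −0.813 bp without intact 1, −0.875 bp without blastema 2 and −4 bp without systemically activated 4.

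Shared sites lay in tight groups along the chromosomes. The distance to the nearest other shared site had a median of 1943 bp over the 205 sites with another on the same sequence. The lower and upper quartiles were 409 and 144181 bp. Within 10 kb of another shared site lay 124 of the 222 (55.9%), and within 100 kb lay 149 (67.1%, 95% Wilson interval 60.7% to 73.0%). The interval treats sites as independent, but a near neighbour is mutual, so the interval is too narrow. It does not measure the spread between libraries or animals. Among the other sites, measured to one another, the median was 845788 bp, and 32.2% and 34.4% lay within 10 and 100 kb. Within 1 kb the sets were close, with 31.1% of shared and 29.0% of other sites. The other sites outnumber the shared ones and so had more chances of a near neighbour. Most peaks of the other sites came from the systemically activated lists.

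**Figure D3:**
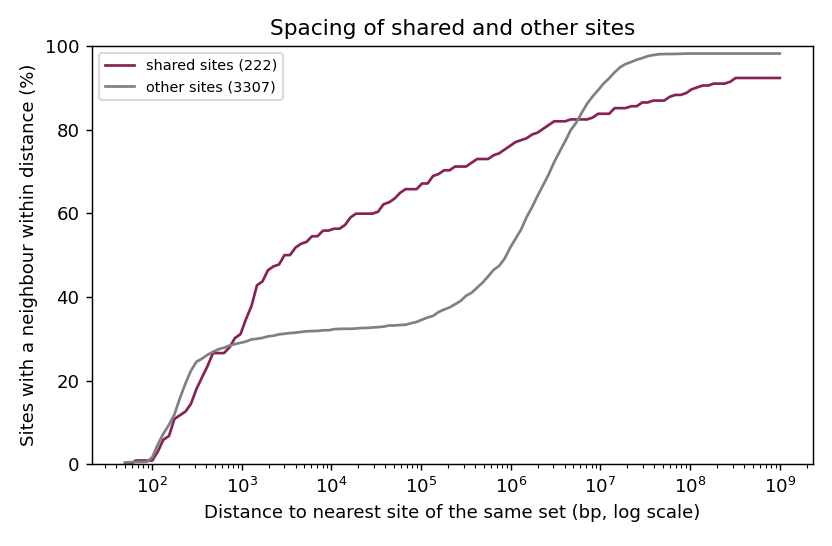
Percentage of sites with another site of the same set within a distance (vertical axis) against that distance (horizontal axis, bp, log scale). The line for the 222 shared sites rises to 55.9% at 10 kb and 67.1% at 100 kb, where the line for the 3307 other sites stands at 32.2% and 34.4%.

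Joining shared sites less than 100 kb apart gave 122 clusters. Single sites made up 73 of them, 24 held at least 3 sites and 5 held at least 5. The largest cluster of other sites held 6. The largest of all lay on 5q, segment 0, from 58602429 to 58687642, where 13 shared sites covered 11972 bp of 85.2 kb. Of these, 11 had a peak in all 6 lists, and their widths ran from 113 to 4132 bp. No site outside the shared set lay among them. A cluster of 6 on 3p, segment 1, from 259785883 to 259882708, held the second and the fifth strongest sites of the set, and all of its sites were in all 6 lists. Its median rank was 25, 24, 25.5, 25.5, 24.5 and 19.5 in the 6 libraries. A cluster of 5 on 13q, from 20670004 to 20790967, was also complete, with median ranks of 21, 22, 24, 22, 16 and 13. Its sites were spread over 121 kb with a median gap of 36347 bp between neighbours.

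In the other 2 clusters of at least 5 sites, a smaller part of the sites was in all 6 lists. On 1q, segment 0, 6 sites lay within 5.96 kb, from 232673979 to 232679938, and 3 of them were in all 6 lists. On 5q, segment 1, 7 sites lay between 65490100 and 65574254, each at most 459 bp wide and none of them in all 6 lists. Peaks were listed at 7 and 5 of these 7 in intact 1 and 2, at 6 in each systemically activated library, at 1 in blastema 1 and at all 7 in blastema 2. The blastema libraries thus stood at the opposite ends of the range there. The closest neighbours were 60 bp apart, on 6q, segment 0, where a site from 179023056 to 179024933 was followed by one from 179024994 to 179026025.

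The sites were unevenly spread over chromosome arms. Of the 28 arms, 23 held a shared site, and 9p, 10q, 12p, 13p and 14p, which held 196 other sites (5.93% of them), held none. The long arm of chromosome 5 held 25 (11.3%), 1p held 23 (10.4%), 1q held 22 (9.91%), 7q held 20 (9.01%) and 13q held 17 (7.66%). Together these 5 arms held 107 shared sites (48.2%) and 730 others (22.1%). They were picked as the arms with most shared sites, so part of that difference follows from the choice. The long arm of chromosome 3 held 331 other sites (10.0%) and 9 shared ones (4.05%), and 10p held 152 others and 1 shared site. Of the sites on an arm, 19.4% were shared on 5q, 18.5% on 7q, 14.0% on 13q, 11.5% on 1q and 8.01% on 1p. The share was 2.65% on 3q, 0.654% on 10p and 6.29% over all sites. Sites of a cluster share an arm, and 57 sites (25.7%) lay in clusters of at least 4, so the counts per arm are not counts of independent sites. The remaining 5 shared sites lay on 4 unplaced scaffolds.

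**Figure D4:**
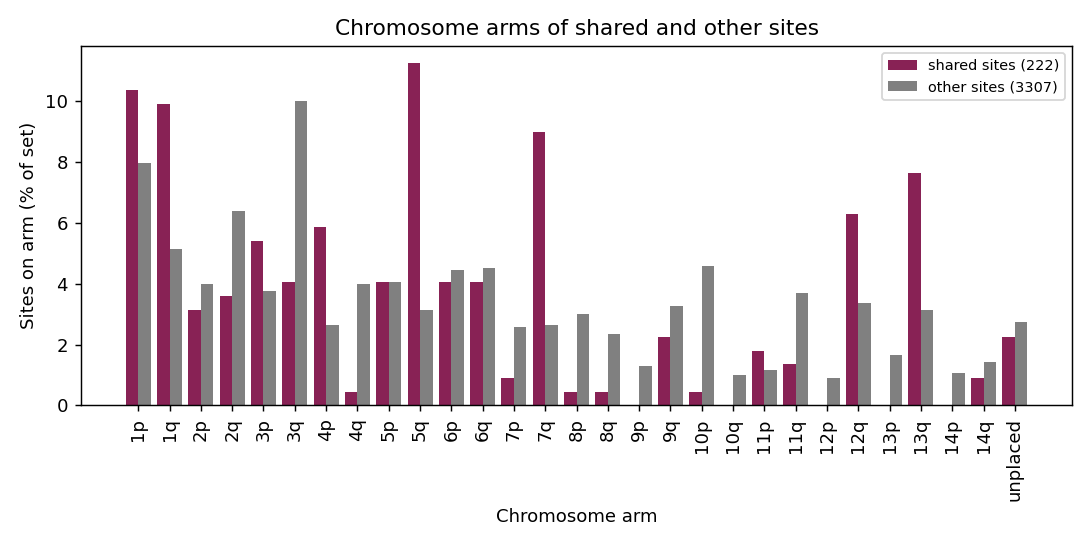
Percentage of the 222 shared sites and of the 3307 other sites on each chromosome arm (vertical axis, percent of the set; horizontal axis, arm). The bar of shared sites is the higher on 5q (11.3% against 3.14%), 7q (9.01% against 2.66%) and 13q (7.66% against 3.14%), and the lower on 3q (4.05% against 10.0%).

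The order of the shared sites by area was close in all libraries. Areas of the peaks of a site were added, and the 155 sites found in all 6 lists were ranked from 1, the largest, to 155 within each library. Such a rank is relative, since a site can rise only where others fall. Spearman's rho across these 155 sites was 0.956 in the intact pair, 0.925 in the systemically activated pair and 0.946 in the blastema pair, and lay between 0.860 and 0.930 for libraries of different groups. Sites are not independent replicates, so libraries were tested as pairs. Replicates had a mean rho of 0.942 and libraries of different groups 0.898. The difference of 0.044 gave p = 0.0667 in the 1-sided exact permutation test, the smallest that 15 pairings allow. It was 0.0281 without intact 1, 0.0208 with summit −log10 q of at least 5 (exact p = 0.133) and 0.0712 when sites were ranked by summit −log10 q (exact p = 0.0667).

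The agreement was closest at the top. There were 7 sites in the top 10 of all 6 libraries and 14 in the top 20 of all 6, while 4 sites were in the lowest 20 of all 6 and 43 in the lowest 20 of at least 1. A site's ranks spanned a median of 5 places for the 21 sites with a median rank of at most 20, 23 places for the 57 sites with a median rank up to 77, 42 places for the 61 sites from 78 to 135 and 22.5 places for the 16 sites from 136 to 155. Replicates of a group differed at a site by a median of 7 places in the intact limb, 6 in the systemically activated limb and 6 in the blastema, and by as many as 61, 84 and 78 places. The widest span of a single site came from 1 library: a site of 700 bp on 1q, segment 0, from 232677223 to 232677922, ranked 61, 75, 67, 151, 58 and 99, so that its rank in systemically activated 5 stood far below the rest. A site of 972 bp on 1q, segment 0, from 273896481 to 273897452, ranked 36, 58, 47, 119, 32 and 58, again lowest in systemically activated 5. The third widest span, at a site of 1009 bp on 5p, segment 1, from 229189719 to 229190727, came from systemically activated 4, with ranks of 72, 84, 138, 60, 75 and 52.

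No single site passed the test for a changed rank between groups. With limma on normal scores of the ranks and Benjamini-Hochberg adjustment over the 155 sites, 0 sites (0%) had an adjusted p under 0.05 in any of the 3 comparisons. The lowest adjusted p was 0.101 for the systemically activated against the intact limb, 0.129 for the blastema against the intact limb and 0.0668 for the systemically activated limb against the blastema. Unadjusted limma p was under 0.05 at 30 (19.4%), 35 (22.6%) and 34 (21.9%) of the 155 sites. Ranking by summit −log10 q in place of area gave 4, 0 and 3 sites with an adjusted p under 0.05 in limma. The highest summit −log10 q of a list was held by 1 and 3 peaks in intact 1 and 2. It was held by 12 and 32 peaks in systemically activated 4 and 5, and by 5 and 26 in blastema 1 and 2. Such ties flatten the order to a different degree in each list, and their effect on these counts was not tested. Ranks of the systemically activated and intact libraries did not overlap at 84 of the 155 sites (54.2%), against a background of 52.5% over the 179 sites found in all 4 lists. For the blastema and the intact limb the count was 87 (56.1%), against a background of 57.2%. For the systemically activated limb and the blastema it was 80 (51.6%), against 49.7%. These shares were near their backgrounds, but the backgrounds are made up mostly of the same sites. The nearness therefore does not tell whether ranks differ between groups. The median size of the change in a site's mean rank, in either direction, was 10, 9.5 and 8 places in the 3 comparisons.

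**Figure D5:**
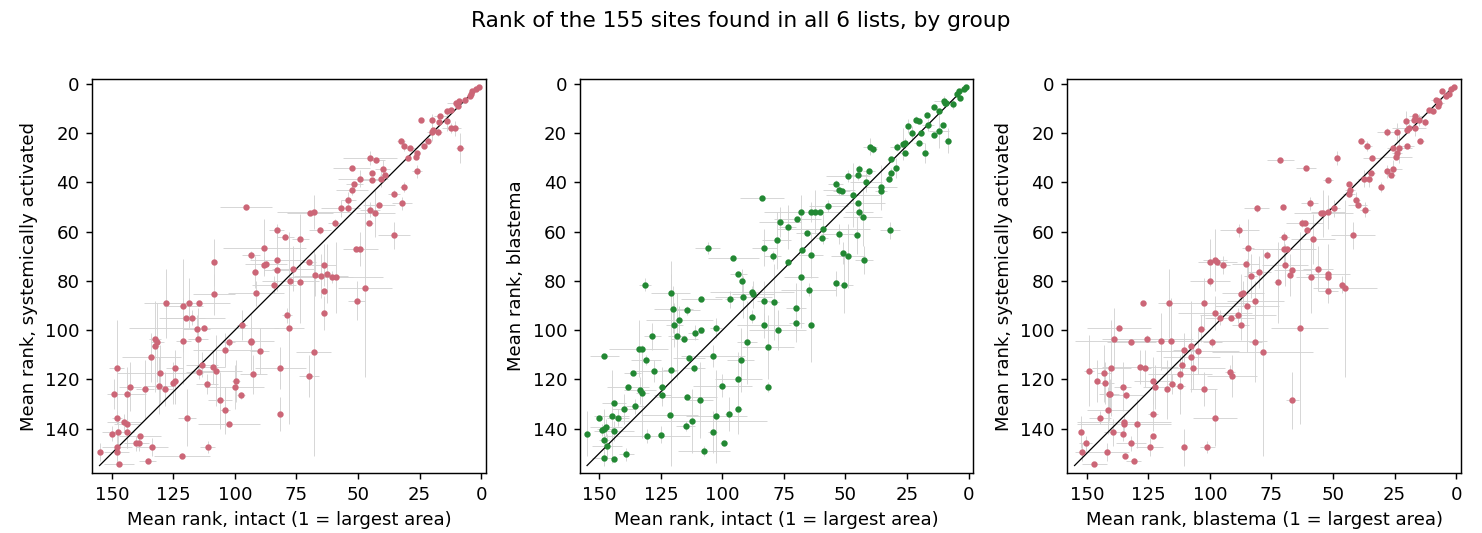
Mean rank of each of the 155 sites found in all 6 lists in one group against another (both axes in ranks, 1 for the largest area, drawn at the upper right). Points are means of 2 libraries, thin lines join the 2 libraries' ranks and the diagonal marks equal rank. Points close on the diagonal at the top ranks and scatter between ranks 50 and 150, and no site passed the test.

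The sites with the largest rank differences are given with their ranks in intact 1 and 2, systemically activated 4 and 5 and blastema 1 and 2, in that order. They were taken as the 3 largest in each direction among sites whose groups did not overlap, and their size is a description. A site of 278 bp on 6q, segment 1, from 307641171 to 307641448, ranked 82, 81, 127, 141, 125 and 121. It stood higher in both intact libraries than in the other 4, by 52.5 places over the systemically activated limb (limma adjusted p = 0.101) and by 41.5 places over the blastema (adjusted p = 0.138). Its summit −log10 q was at least 5.46 in both intact libraries and between 2.35 and 3.43 in the others, while its peak was 242 to 278 bp wide throughout. The site thus differed in summit −log10 q and hardly in width, and neither adjusted p was under 0.05. The highest summit −log10 q of a list ran from 6.03 in systemically activated 5 to 9.28 in intact 1. It is therefore not a measure of height on 1 scale.

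A site of 776 bp on 2q, segment 2, from 360734014 to 360734789, ranked 106, 85, 49, 51, 71 and 70. It stood 45.5 places higher in the systemically activated than in the intact limb (limma adjusted p = 0.101), with the blastema between them. Its peak was 573 and 597 bp wide in intact 1 and 2, 767 and 771 bp in systemically activated 4 and 5, and 639 and 609 bp in blastema 1 and 2. A site of 432 bp on 1p, segment 2, from 468237532 to 468237963, ranked 74, 66, 110, 127, 81 and 101, and stood 48.5 places lower in the systemically activated than in the intact limb (limma adjusted p = 0.132).

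Higher in the blastema than in the intact limb stood a site of 916 bp on 5q, segment 0, from 20426970 to 20427885, ranked 101, 111, 140, 117, 69 and 64. It was 39.5 places above the intact limb (limma adjusted p = 0.178) and 62 places above the systemically activated limb (adjusted p = 0.111). Its peak widths were 570, 444, 430, 685, 834 and 897 bp, the widest in the 2 blastema libraries. A site of 789 bp on 6q, segment 0, from 178744220 to 178745008, ranked 129, 134, 89, 121, 84 and 79 and stood 50 places higher in the blastema than in the intact limb (adjusted p = 0.138). Its systemically activated libraries differed by more places than the blastema libraries did.

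Lower in the blastema stood a site of 245 bp on 4p, segment 0, from 386234093 to 386234337, ranked 98, 101, 129, 112, 145 and 147, which is 46.5 places below the intact limb (limma adjusted p = 0.129). A site of 1263 bp on 2p, segment 0, from 169960575 to 169961837, ranked 46, 39, 32, 30, 77 and 66. The systemically activated limb stood 40.5 places above the blastema there (adjusted p = 0.0668), with the intact libraries nearer to the former. A site of 355 bp on 1q, segment 1, from 374071608 to 374071962, ranked 114, 108, 145, 150, 104 and 98 and stood 46.5 places lower in the systemically activated limb than in the blastema (adjusted p = 0.0668). Its area was 525 and 476, 168 and 96.9, and 521 and 604 in the 3 groups. The remaining 8 differences of the same rule lay between 36 and 41.5 places in size.

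Neighbouring shared sites tended to deviate in the same direction across the libraries. For each of the 155 sites the deviation of its rank from its own mean was taken in the 6 libraries and correlated with that of the next of the 155 on the same sequence. Of 62 pairs less than 100 kb apart, 2 held a site whose rank was the same in every library and gave no correlation. For the other 60 pairs the median Pearson r over the 6 libraries was 0.657, and 53 pairs (88.3%) were above 0. For pairs on different arms the median was −0.0203 and 48.8% were above 0. The median r was 0.723 for 19 pairs less than 1 kb apart, 0.594 for 28 pairs at 1 to 10 kb and 0.661 for 13 pairs at 10 to 100 kb. It was 0.220 for 30 pairs at 100 kb to 10 Mb and 0.151 for 25 pairs farther apart. Pairs share the 6 libraries and a site can be in a pair with each of its neighbours, so these medians are descriptions with no test.

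The shared deviation was seen between groups and also between the replicates of the intact limb and of the blastema. Between the systemically activated replicates the signs were nearly even. The difference of mean rank between the blastema and the intact limb had the same sign at both neighbours in 53 of the 62 pairs and the opposite sign in 6, and was 0 at a neighbour in the rest. For the systemically activated against the intact limb the counts were 43 and 15, and for the systemically activated limb against the blastema 42 and 15. These comparisons share libraries and are given side by side. The difference between the 2 replicates had the same sign in 41 pairs and the opposite in 13 for the intact limb, in 38 and 14 for the blastema, and in 27 and 23 for the systemically activated limb. The cluster of 4 sites on 6q, segment 1, that starts at 307637332 had median ranks of 62, 68.5, 82, 90, 89.5 and 102. A median over sites does not show that each site deviated alike. The cluster also holds the site from 307641171, which was picked above for its rank difference. Among the 100 neighbouring pairs of shared sites within 100 kb, both sites were in all 6 lists in 57, a single site lacked a list in 29, and both lacked a list in 14. Of these 14 pairs, 9 lacked a list in common, and 4 of the 9 lay in the cluster of 7 sites on 5q.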

How the data were processed

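Peaks of 6 ATAC-seq libraries were read from 1 deposited list per library, so peaks were called per library. Per the submitters' processing notes, Bowtie2 2.3.2 and Genrich (0.5 and 0.5.0) were used. Their settings, any Tn5 shift, the handling of duplicates and the genome build are not given in the sources used here. The deposited score (column 5) was, within 1, the area per bp times 1000, capped, and was not used. The deposited signal (column 7), read as an area, served only to rank. Deposited −log10 p and −log10 q (columns 8 and 9) belong to the summit, and column 10 is the authors' summit offset. The highest −log10 q was tied over 32 peaks in systemically activated 5, 26 in blastema 2 and 12 in systemically activated 4. A list holds only peaks above a threshold, so an absent peak is not a measured zero, and the depth behind each list is unknown.

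Library values were compared by exact permutation tests, and ranks of single sites by limma 3.58.1 (R 4.3.3) on normal scores of the ranks, with the 3 groups in 1 fit. This script was tested on simulated data. Python 3.11.15, pandas 2.3.3 and scipy 1.17.1 were used. Sites were named as the 5 highest and 3 lowest by median rank, the 3 widest, the 3 with the most peaks, the 3 closest pairs, the 3 with the largest rank difference in each direction per comparison without overlap of the groups, and those at the edge of the rule. Clusters and the sites with the widest span of ranks were chosen after their values were seen. The sites, their measures and the rule were chosen with earlier results of these data known. A gene table on the assembly UKY_AmexF1_1 could not be matched to the lists, so no gene was assigned, and no sequence of the build of the lists was used here. Replicate numbers 1 and 2 occur in the intact and blastema groups, but nothing in the labels ties them.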

Additional observations from a re-analysis of the deposited data

How the results depend on the processing

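Alternatives were run for joining (overlap of at least 50% of the shorter peak, or peaks up to 500 bp apart), thresholds (summit −log10 q of at least 2 or 5), lists cut to 248 peaks, sites in both lists of every group, chromosome arms only, other rank scales, and leaving out each library. Without leaving out a library, 92 of 107 such values kept their direction and their side of the p threshold, or stayed near the value reported. Near was taken loosely for counts: 188, 176 and 155 shared sites in place of 222 were counted as kept. These came from joining across 500 bp, lists cut to 248 peaks and sites in both lists of every group. Peak width, peaks per site, summit distance and order by area were tested by exact permutation. The smallest p that these tests allow lies above the threshold, so their values could not change side. They counted as kept unless their direction reversed, and for them the count of 92 says nothing about the test. With −log10 q of at least 5 the shared sites numbered 52 of 96, their median width was 1189.5 bp and 44.2% lay within 100 kb of another. Joining across 500 bp gave 751 bp and 56.9%. The median width was 593 bp with −log10 q of at least 2, 650.5 bp with the strongest 248 peaks of each list, and 700 bp for sites in both lists of every group. Without 1 library it was 514 to 566 bp, and the number of shared sites 199 to 211.

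The difference in width between blastema and intact limb, 0.0088 as log2, ran from −0.0674 to 0.055 without 1 library. It turned negative without intact 1 (−0.0656), systemically activated 4 (−0.00584), systemically activated 5 (−0.00285) or blastema 1 (−0.0674). The same groups' difference in peaks per site ran from −0.0382 to 0.012. It was positive with −log10 q of at least 2 (0.00338), with 248 peaks per list (0.0294) and without intact 1 (0.012) or blastema 1 (0.00299). In limma, ranking by summit −log10 q gave 4 sites for the systemically activated against the intact limb (lowest adjusted p 0.0386) and 3 for it against the blastema (0.0297). The latter comparison gave 3 sites with peaks joined across 500 bp (0.0422), 1 with −log10 q of at least 2 (0.0338) and 1 on raw ranks (0.0397). Leaving out 1 library gave 0 to 1 site for the blastema against the intact limb, with 1 without systemically activated 4 (0.0445) or 5 (0.0413). The cause was not tested. None of the 236 alternative values of the named rank changes reversed. These changes were picked as the largest among sites whose groups did not overlap, and the alternatives reuse the same lists. A reversal was therefore unlikely from the start, and its absence is not a test of these changes. The median r of neighbours ran from 0.567 to 0.75 without 1 library, an alternative chosen after seeing the data.

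With the replicate block (intact and blastema libraries paired by number), the difference in width stayed 0.0088 and that in peaks per site −0.0129, each with an exact paired p of 1, where 0.5 is the smallest possible, and limma called 0 sites. Deviations of intact 1 and blastema 1 correlated at 0.0972, and nothing in the labels says that the numbers mark a shared animal, batch or day.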
